A study of Mus musculus with 4 samples.

Results

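Cytosolic ribosomal protein genes were followed in 4 RNA sequencing libraries of mouse leukemia cells, 2 in the group labelled Scr and 2 in the group labelled miR-99 KD. Members were protein-coding genes whose symbol was Rpl or Rps with a number, with an a, x, l or l1 suffix where one was present, together with Rplp0, Rplp1, Rplp2 and Rpsa. This gave 82 of the 45232 gene identifiers in the count files, of which 76 were core genes and 6 were paralogs with an l or l1 suffix. A further 3 symbols, Rps4l, Rps12l1 and Rpl6l, fitted the pattern but are annotated as pseudogenes and were left out. The cells were leukemic granulocyte-macrophage progenitors (L-GMPs) from secondary recipient mice with leukemia driven by the fusion oncoprotein MLL-AF9, which both groups carried. They were purified by flow sorting at death as GFP and tdTom positive cells, from 2 mice per group. Stains for CD34, CD16/32, Sca-1 and c-Kit were also part of the sort, which does not make the cells positive for each. The labels give no promoter, vector, mouse strain or age, do not spell out Scr or KD, and do not say whether the 4 mice received cells of 1 primary leukemia. Where nothing states that, p-values measure only the spread between these libraries.

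The ribosome of the cytosol is built from a small (40S) and a large (60S) subunit, each a scaffold of ribosomal RNA covered by proteins, most of them present once per ribosome. The acidic P proteins form a stalk on the large subunit that binds the translation factors. Most ribosomal protein mRNAs begin with a cytosine and a run of pyrimidines, the terminal oligopyrimidine or TOP motif, through which mTOR signalling and the RNA-binding protein LARP1 control their translation. Blood formation is sensitive to the dose of single ribosomal proteins, as inherited loss of 1 copy of several of these genes causes Diamond-Blackfan anemia.

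Some annotated start sites of core genes showed this sequence feature, at a higher share than over all genes. RefSeq promoter windows (build GRCm38.p6) matched 62 members, with 66 windows of 56 core genes and 8 windows of the 6 paralogs. A start that was a C followed by at least 4 more C or T was found in 13 of the 66 core windows (19.7%), in 0 of the 8 paralog windows and in 2.505% of the 32851 windows of all genes. Annotated starts are often a few bases away from the start used in a given cell, so a window without this start may still belong to a TOP mRNA. The stretches printed here are 5′ to 3′ on the transcript's strand, 15 bases before the start and 15 from it, with the run of C and T at the start in capitals. They were chosen as the longest runs and those of Rps6 and Rps21, which are described by value further on. The starts of the paralogs Rpl22l1 and Rpl7l1, which have no such run at the annotated base, are also printed. In Rpl22l1 a run of C and T opens at the next base, so its start is not a clear contrast.
Rpl15 (chr14:18270972-18271001, minus strand): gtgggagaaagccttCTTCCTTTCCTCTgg
Rpl35 (chr2:39005117-39005146, minus strand): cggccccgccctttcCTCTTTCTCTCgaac
Rps10 (chr17:27635230-27635259, minus strand): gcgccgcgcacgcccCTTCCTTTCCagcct
Rps18 (chr17:33955651-33955680, minus strand): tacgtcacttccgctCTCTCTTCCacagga
Rps6 (chr4:86857353-86857382, minus strand): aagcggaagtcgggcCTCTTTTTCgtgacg
Rps21 (chr2:180257364-180257393, plus strand): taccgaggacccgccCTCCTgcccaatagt
Rpl22l1 (chr3:28805493-28805522, plus strand): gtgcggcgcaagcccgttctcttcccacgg
Rpl7l1 (chr17:46782642-46782671, minus strand): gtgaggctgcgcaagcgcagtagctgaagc

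Short pyrimidine words near the start were also frequent. CTTTCC on the transcript strand was present in the last 70 bases of 27.27% of core windows and 3.245% of all windows, and CTCTTT in 30.3% and 2.587%. These words can overlap each other and the run at the start. CCGGAAG, a word that contains the core of ETS family binding sites, was present on either strand of the 300 bases in 36.36% of core windows and 8.858% of all windows. TATAAA was found within the 40 bases before the start in 0 core windows and in 2.307% of all windows. A match is only a description of the letters in these windows.

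Depth was similar across libraries, and 1 of them stood apart. Gene counts summed to between 38458519 (Scr 1) and 42674407 (miR-99 KD 1). Scr 1 had at least 1 count in 28573 genes, against 21372 to 24038 in the others, and olfactory receptor genes held 51.9 CPM (counts scaled to a common library size) in it, against 4.78 to 15.0. Of the 5 sorting gate markers, Ly6a, the gene of Sca-1, had 4 to 8 counts per library and the other 4 had enough to be tested. Among them Kit, the c-Kit gene, had 453 and 424 CPM in Scr against 298 and 232 CPM in miR-99 KD, where both libraries were below both Scr libraries. Its log2 fold change was −0.67 ± 0.19, and edgeR gave it an adjusted p of 0.580. The other 3 tested were above 0 on the log2 scale. The libraries were made from total RNA by SMARTer amplification and do not measure mature microRNAs, so the reduction of miR-99 was not checked here.

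The core genes covered a wide range of counted levels. Their mean over the 4 libraries ran from 3.47 CPM (Rpl24) to 1353 CPM (Rpl4), with a median of 63.4 CPM. Per length, the mean ran from 5.13 to 880 CPM per kb of exon, with a median of 60.4. Alignments that were not unique are missing from these counts, and copies of a gene can hold its reads. Pseudogenes named after Rps16 held 89.0% of the summed reads of gene and pseudogenes, and those of Rps6 86.6%. Rpl4 has no pseudogene named after it. How much of the range comes from such losses was not tested. The highest level per length was that of Rpl4, a large-subunit protein that lines the exit tunnel, at 880 CPM per kb, followed by the stalk base Rplp0 at 605 and Rpl32 at 557 CPM per kb. Rpl8 had 411 CPM per kb, Rps3, a protein of the mRNA entry channel, had 392, and Rpl13a had 304 CPM per kb. The 5 core genes with the most counts held 38.4% and 39.4% of the core counts in Scr against 38.7% and 37.6% in miR-99 KD.

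Together the core genes held a small share of each library, and it was lower in both Scr libraries than in both miR-99 KD libraries. The share of gene counts was 0.970% for Scr 1 and 0.838% for Scr 2, against 1.01% for miR-99 KD 1 and 1.25% for miR-99 KD 2. The groups did not overlap, but Scr 1 and miR-99 KD 1 were close, and miR-99 KD 2 stood above the rest. The mean was 0.904% ± 0.0936 (SD, n = 2) in Scr against 1.13% ± 0.169 in miR-99 KD, a ratio of 1.25. An exact two-sided permutation test gave p = 0.333, the smallest that 2 libraries against 2 allow. Adjusted by Benjamini-Hochberg over the 11 shares compared in this way, the exact permutation p was 0.458.

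Each part of the ribosome had the same order of libraries, with Scr 2 lowest and miR-99 KD 2 highest. The 30 genes of the 40S subunit held 0.369% and 0.313% of counts in Scr against 0.387% and 0.493% in miR-99 KD, a ratio of means of 1.29. The 43 genes of the 60S subunit held 0.503% and 0.436% in Scr against 0.521% and 0.629% in miR-99 KD, a ratio of 1.22. For the 3 genes of the P stalk the shares were 0.0986%, 0.0887%, 0.103% and 0.129%, a ratio of 1.24. The 40S genes made up 38.0% and 37.4% of the core counts in Scr against 38.3% and 39.4% in miR-99 KD. The exact permutation p was 0.333 for each of these 4 quantities. In bulk RNA, fewer cells of a type and less RNA per cell cannot be told apart, and this holds for all values given here.

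**Figure D1:**
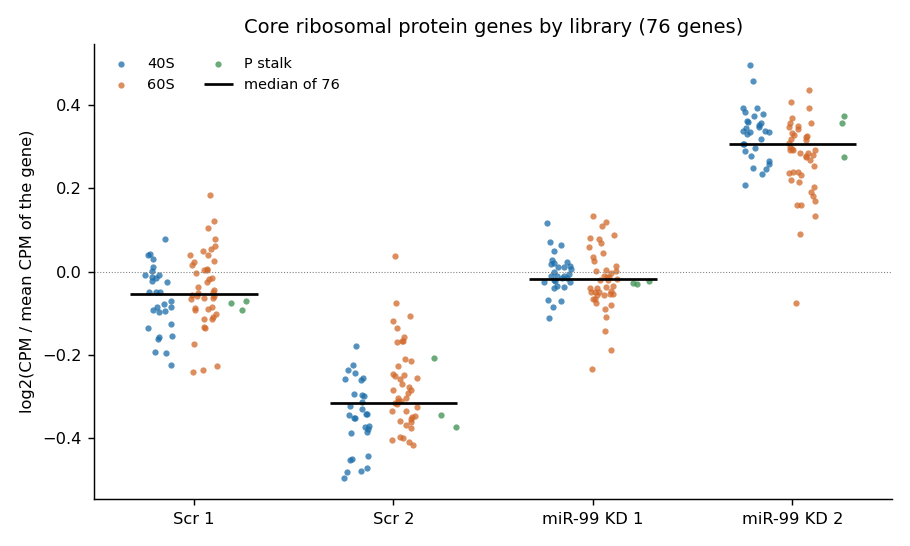
Log2 of the CPM of each of the 76 core genes in a library over the gene's mean CPM in the 4 libraries, by library; points are genes coloured by subunit and the line is the median of the 76. The cloud of miR-99 KD 2 lies above the other libraries, and that of miR-99 KD 1 lies near that of Scr 1.

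The size of the difference depended on which libraries were set against each other. On the scale of log2 CPM with TMM factors, the median core gene was 0.19 higher in miR-99 KD 1 than in Scr 1, and 69 of 76 genes were higher. It was 0.29 higher in miR-99 KD 1 than in Scr 2 (74 of 76), 0.45 higher in miR-99 KD 2 than in Scr 1 (75 of 76) and 0.60 higher in miR-99 KD 2 than in Scr 2 (76 of 76). Within groups, the median core gene was 0.29 higher in miR-99 KD 2 than in miR-99 KD 1 (74 of 76) and lower by 0.12 in Scr 2 than in Scr 1 (17 of 76 higher). The distance between the miR-99 KD libraries was close to that of miR-99 KD 1 from Scr 2 and larger than that of miR-99 KD 1 from Scr 1.

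Other features of the libraries followed the same order. Alignments that were not unique made up 19.8% and 19.3% of entries in Scr against 20.1% and 23.6% in miR-99 KD. Mitochondrially encoded genes held 0.650% and 0.637% of gene counts in Scr against 0.853% and 1.16% in miR-99 KD. A list of 12 granulocyte maturation genes held 0.620% and 0.420% in Scr against 1.10% and 2.44% in miR-99 KD. In that list 11 genes were above 0 and 1 below on the log2 scale, and the median log2 fold change was 2.37. The myeloperoxidase gene Mpo had 713 and 503 CPM in Scr against 2313 and 4714 CPM in miR-99 KD. For the lactoferrin gene Ltf the values were 4.97 and 1.82 CPM against 52.6 and 145 CPM. Their edgeR adjusted p was 0.421 for both. DESeq2 called 7 of the 12 genes (1.67% of all genes) and edgeR 0 (0% of all genes), with 9 higher at an unadjusted p under 0.05 in edgeR (2.66% of all genes). The part of these features, or of the lower Kit level, in the ribosomal protein result was not tested.

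Lists of other cell types were at low levels. The erythroid list of 8 genes held 0.00761% and 0.00975% of counts in Scr against 0.00452% and 0.0112% in miR-99 KD, with a median log2 fold change of −1.15 that was −0.29 without Scr 2 and −1.82 without miR-99 KD 2. edgeR called 0 of the 8, with 3 lower at an unadjusted p under 0.05 (5.23% of all genes), and DESeq2 called 1 (1.67%), the anion exchanger gene Slc4a1. The B cell list (3 of 6 genes tested) held 0.00614% to 0.00894% of counts, the T and NK cell list (2 of 6 tested) 0.0114% to 0.0166%, and the stroma and endothelium list (5 of 6 tested) 0.0114% to 0.0151%. Their median log2 fold changes were −0.88, −0.49 and −0.58, and without Scr 1 they turned to 0.39, 0.52 and 0.99. The T and NK cell median also turned without Scr 2 (0.091) and without miR-99 KD 1 (0.32). Most of these shares came from 1 gene per list, Cd79b at 59.9 to 88.2 CPM, Nkg7 at 112 to 164 CPM and Pecam1 at 111 to 149 CPM, while Cd3e, Cd3g and Cdh5 had 0 to 4 counts in each library.

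No core gene was called in the comparison of the groups, although all of them had values in the same direction. Of the 76 core genes, 76 had a positive log2 fold change, where 49.0% of all 15591 genes tested did. Their median was 0.38, a 1.30-fold higher level in miR-99 KD, against a median of −0.011 over all genes. The values ran from 0.061 to 0.67, with standard errors of 0.14 to 0.29. With edgeR's quasi-likelihood test and Benjamini-Hochberg adjustment over all genes, 0 core genes passed an adjusted p of 0.05 (0% of all genes), and the smallest adjusted p was 0.607. At an unadjusted p under 0.05, edgeR had 5 core genes higher (2.66% of all genes) and 0 lower (5.23%). DESeq2 called 0 core genes at its adjusted p (1.67% of all genes), with 4 higher at an unadjusted p under 0.05 (2.84%). Leaving out 1 library moved edgeR's count of 5 to 47 without miR-99 KD 1 (6.33% of all genes), 2 without miR-99 KD 2 (1.42%), 0 without Scr 1 (3.13%) and 0 without Scr 2 (7.02%). Genes of 1 complex share their libraries and vary together, so the 76 values are not 76 separate observations.

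Both miR-99 KD libraries were above both Scr libraries in 68 of the 76 core genes on the TMM scale, where 18.9% of all genes were. They were below in 0 core genes (25.3% of all genes). The count was 28 of 30 for the 40S subunit, 37 of 43 for the 60S subunit and 3 of 3 for the P stalk. The 8 genes with overlapping groups were Rpl5, Rpl9, Rpl24, Rpl28, Rpl35, Rpl38, Rps19 and Rps25. The count turned on the scaling. With library totals and no factor it was 51 (12.6% of all genes), and with upper-quartile factors 30 (12.2%).

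**Figure D2:**
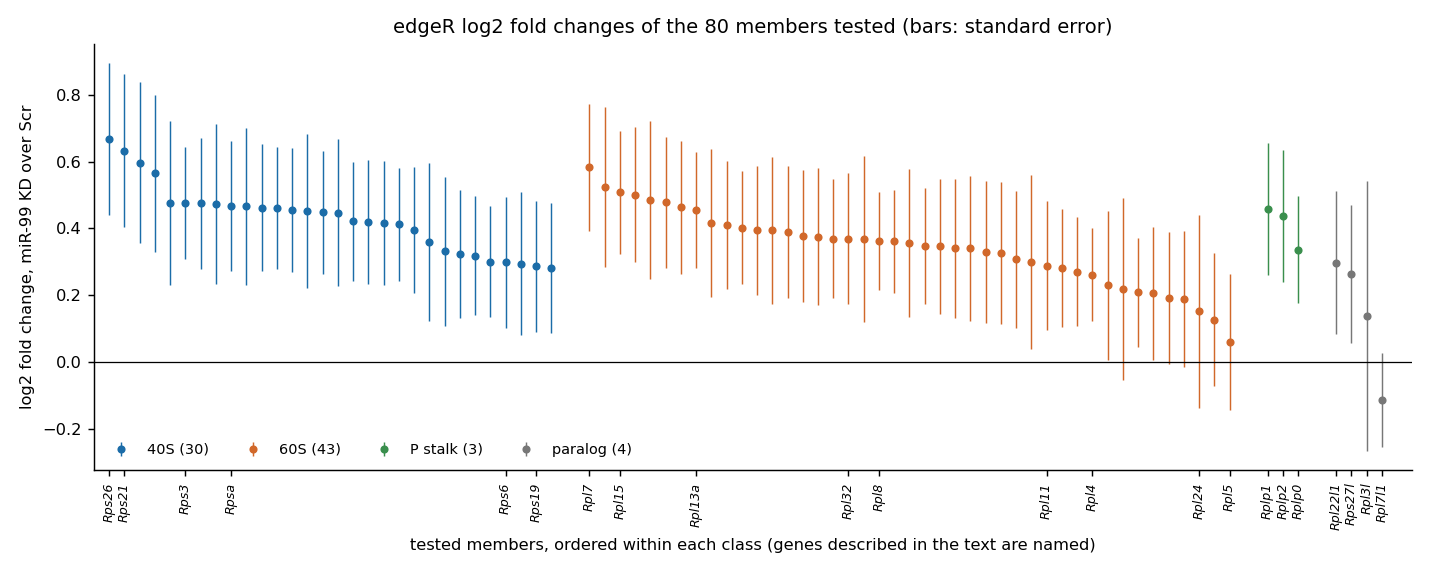
edgeR log2 fold changes of miR-99 KD over Scr for the 80 members with enough counts to be tested, in order within each class, with the genes described in the text named; bars are 1 standard error either way. Core genes run from 0.061 (Rpl5) to 0.67 (Rps26), and the paralog Rpl7l1 is the only member below 0.

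Among the small-subunit genes, 30 of 30 had a log2 fold change above 0, and the median was 0.45. Rps26, which contacts mRNA near the exit channel and is one of the Diamond-Blackfan anemia genes, had 59.0 and 47.8 CPM in Scr against 67.8 and 95.3 CPM in miR-99 KD. Its log2 fold change was 0.67 ± 0.23 (SE), with an edgeR adjusted p of 0.621. Rps21 had 22.2 and 18.6 CPM in Scr against 25.9 and 35.0 CPM in miR-99 KD (0.63 ± 0.23). Rps3 had 668 and 611 CPM in Scr against 758 and 954 CPM in miR-99 KD (0.48 ± 0.17). For each of these 3 genes miR-99 KD 2 was the highest library and Scr 2 the lowest, and the groups did not overlap. Their unadjusted edgeR p-values were 0.0380, 0.0457 and 0.0419, and the adjusted p was 0.621 for all 3. Rps3 carries a small nucleolar RNA, Snord15b, inside its annotated exons, so its count may include reads of that RNA. A pseudogene named after Rps26 held 30.5% of the summed reads of Rps26 and that pseudogene, so the Rps26 count is uncertain.

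Rpsa, which is also known as the laminin receptor, had 133 CPM in both Scr libraries and 153 and 203 CPM in miR-99 KD (0.47 ± 0.19). Rps6, the substrate of the S6 kinases, had 24.9 and 23.2 CPM in Scr against 26.1 and 30.9 CPM in miR-99 KD (0.30 ± 0.19). In Rps19, the gene most often mutated in Diamond-Blackfan anemia, the groups overlapped, with 207 and 155 CPM in Scr against 187 and 236 CPM in miR-99 KD (0.29 ± 0.20). The edgeR adjusted p of these 3 genes ran from 0.655 (Rpsa) to 0.733 (Rps19). Pseudogenes named after Rps6 held 86.6% of the summed reads of gene and pseudogenes, those of Rpsa 44.9% and those of Rps19 31.3%. The counts of these genes are therefore uncertain.

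Among the large-subunit genes, 43 of 43 had a log2 fold change above 0, and the median was 0.36. Rpl7 had 205 and 187 CPM in Scr against 242 and 324 CPM in miR-99 KD, with a log2 fold change of 0.58 ± 0.19, an unadjusted edgeR p of 0.0326 and an adjusted p of 0.607. Rpl15, whose start carries the longest pyrimidine run shown, had 31.6 and 27.1 CPM in Scr against 37.7 and 42.6 CPM in miR-99 KD (0.51 ± 0.18, edgeR adjusted p 0.621). The miR-99 KD libraries of Rpl15 lay close together, and its exons overlap those of Nkiras1 on the opposite strand. Rpl4 had 1306 and 1206 CPM in Scr against 1377 and 1522 CPM in miR-99 KD (0.26 ± 0.14). Rpl8 had 397 and 370 CPM against 443 and 507 CPM (0.36 ± 0.15), and Rpl13a 321 and 273 CPM against 345 and 438 CPM (0.46 ± 0.17). The exons of Rpl13a overlap those of Gm45713 by 621 bases on the same strand, so reads of both genes can go uncounted. In Rpl32 the groups overlapped in plain CPM, with 542 and 416 CPM in Scr against 516 and 671 CPM in miR-99 KD (0.37 ± 0.20). The exons of Rpl32 overlap those of Cand2 on the opposite strand.

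Rpl5 and Rpl11, which with 5S ribosomal RNA form the particle that binds the p53 inhibitor MDM2, had log2 fold changes under the core median. Rpl5 had 24.3 and 20.8 CPM in Scr against 20.4 and 24.7 CPM in miR-99 KD. The groups overlapped, and its log2 fold change of 0.061 ± 0.20 was the smallest of the core genes (edgeR adjusted p 0.935). Rpl11 had 19.9 and 16.6 CPM in Scr against 20.7 and 22.2 CPM in miR-99 KD (0.29 ± 0.19, edgeR adjusted p 0.728). The exons of Rpl5 overlap those of Fam69a on the opposite strand. Without miR-99 KD 2, the log2 fold change of Rpl5 was −0.033.

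The 3 stalk genes had similar values. Rplp0 had 771 and 712 CPM in Scr against 809 and 996 CPM in miR-99 KD (0.34 ± 0.16). Rplp1 had 135 and 110 CPM in Scr against 139 and 184 CPM in miR-99 KD (0.46 ± 0.20), and Rplp2 had 79.4 and 65.8 CPM against 82.0 and 107 CPM (0.44 ± 0.20). In each, Scr 1 and miR-99 KD 1 were close and miR-99 KD 2 was highest, and the edgeR adjusted p ran from 0.659 to 0.667.

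Single genes also differed in their share of the core counts. The log2 change of that share, miR-99 KD over Scr, is centred near 0 by construction. It was highest for Rps26 at 0.28 and Rps21 at 0.25, and lowest for Rpl5 at −0.32 and Rpl24 at −0.24. Rpl24 was the core gene with the lowest level, at 2.95 to 4.23 CPM, and its exons overlap those of Gm28037 on the same strand, so reads of the 2 genes can go uncounted. Across the 76 genes, which are not independent replicates, the log2 fold change had a Spearman rho of 0.038 with mean CPM and −0.054 with exon length. The 13 core genes with a pyrimidine run at an annotated start had a median log2 fold change of 0.36, and the 43 others with a window had 0.38.

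The l and l1 paralogs had values on both sides of 0. Their summed share of counts was 0.0498% and 0.0405% in Scr against 0.0419% and 0.0448% in miR-99 KD, a ratio of means of 0.960 (exact permutation p = 1). Of the 6 paralogs, 4 had enough counts to be tested, 3 of them above 0 on the log2 scale and 1 below. edgeR called 0 of them (0% of all genes) and DESeq2 0 (1.67%). At an unadjusted p under 0.05, edgeR had 0 (2.66% of all genes higher, 5.23% lower). Rpl7l1, a relative of Rpl7 that acts in assembly of the large subunit, had 357 and 301 CPM in Scr against 293 and 292 CPM in miR-99 KD (−0.11 ± 0.14, edgeR adjusted p 0.826). Its Scr libraries were both above its miR-99 KD libraries in plain CPM, and without Scr 1 its log2 fold change was 0.011.

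Rps27l, a p53 target in other systems, had 111 and 81.2 CPM in Scr against 97.9 and 123 CPM in miR-99 KD (0.26 ± 0.21). Rpl22l1, the paralog of Rpl22, had 29.5 and 22.1 CPM in Scr against 27.8 and 33.0 CPM in miR-99 KD (0.30 ± 0.21). The groups overlapped in both in plain CPM. Rpl3l, described in striated muscle, had 28 and 20 counts in Scr against 28 and 26 counts in miR-99 KD (0.14 ± 0.40). Rpl39l, described in testis, had 3 counts in Scr 1 and 0 in the other libraries. Rpl10l, also described in testis, had 0 counts in all 4 libraries, and 0 counts allow up to 3 counts, or 0.0780 CPM in the least deep library.

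Set against their core partners, the paralogs differed from one another. The ratio of Rpl7l1 counts to Rpl7 counts was 1.74 and 1.61 in Scr against 1.21 and 0.900 in miR-99 KD. The groups did not overlap, and the ratio of means was 0.629. The ratio of Rps27l to Rps27 was 7.89 and 7.78 in Scr against 7.21 and 7.44 in miR-99 KD, that of Rpl22l1 to Rpl22 was 0.298 and 0.258 against 0.257 and 0.275, and that of Rpl3l to Rpl3 was 0.00461 and 0.00312 against 0.00399 and 0.00309. Exact two-sided permutation tests gave p = 0.333, the smallest possible, for the ratios of Rpl7l1 and Rps27l, and p = 0.667 for the others. Adjusted by Benjamini-Hochberg over the 4 ratios, the exact permutation p was 0.667 for each. Pseudogenes named after Rpl3 held 67.7% of the summed reads of Rpl3 and its pseudogenes, so the Rpl3 count is uncertain. Those of Rpl22 held 3.72% and those of Rps27 0.615%. The value for Rps27 leaves out Rps27rt, a retrotransposed copy with more counts than Rps27 in each library. Rps27rt had 759 and 717 counts in Scr against 871 and 1166 in miR-99 KD. Rps27 had 541 and 437 counts against 579 and 704, so its count is uncertain too. The files hold no pseudogene named after Rpl7. Copies of Rpl7 under other symbols were not searched, so the Rpl7 count may be uncertain as well.

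Processed pseudogenes, intronless copies of the mRNA in the genome, took up many reads of this family. The files hold 265 pseudogenes named after a member, of which 219 had at least 1 count, and 56 core genes have at least 1. Their summed share was 0.182% and 0.156% of gene counts in Scr against 0.186% and 0.237% in miR-99 KD, a ratio of 1.25, the same as for the core genes. These named pseudogenes made up 15.1% of the summed reads of both kinds in each Scr library and 15.0% and 15.5% in miR-99 KD. Copies under other symbols, such as Gm symbols, were not searched. The pseudogene shares and counts given here may therefore be too low. For 14 core genes the pseudogenes held more counts than the gene itself. Rps16 had 672 and 540 counts in Scr against 765 and 948 in miR-99 KD, while Rps16-ps2 on chromosome 5 had 5626 and 4710 counts in Scr against 5861 and 7549 in miR-99 KD. Rpl3 had 6077 and 6415 counts in Scr against 7015 and 8404 in miR-99 KD, and Rpl3-ps1 on chromosome X had 12464 and 12995 counts against 14664 and 17768.

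In both examples gene and pseudogene had the same order of libraries by count. Of the 265 pseudogenes, 83 were tested, 75 with a positive log2 fold change (49.0% of all genes), and their median was 0.41. edgeR called 0 of them, with 3 higher at an unadjusted p under 0.05 (2.66% of all genes), and DESeq2 called 0. A pseudogene that takes up reads of its parent is not a separate observation of it. When pseudogene reads were added to their genes, the median of the core genes was 0.39, and 71 of 76 had both miR-99 KD libraries above both Scr libraries (18.8% of all genes). Across the 76 core genes the log2 fold change had a Spearman rho of −0.075 with the share of reads in pseudogenes.

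**Figure D3:**
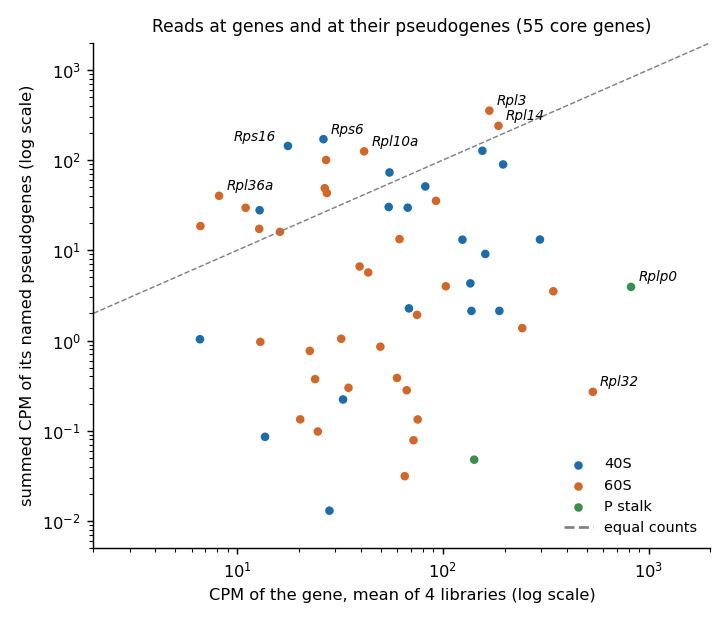
Mean CPM of a core gene in the 4 libraries (horizontal, log scale) against the summed mean CPM of the pseudogenes named after it (vertical, log scale), for the 55 core genes whose pseudogenes have counts; the dashed line marks equal counts. The 14 genes above the line, Rps16, Rps6, Rpl3 and Rpl14 among them, have more reads at their pseudogenes than at the gene.

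Ribosome components whose symbols lie outside the pattern also had values above 0. All 6 had a log2 fold change above 0, and the median was 0.41, and they held 0.0966% and 0.0868% of counts in Scr against 0.0984% and 0.124% in miR-99 KD. Rack1, a scaffold protein of the small subunit, had 579 and 537 CPM in Scr against 584 and 716 CPM in miR-99 KD (0.27 ± 0.16). Rps3a1 had 245 and 216 CPM against 259 and 342 CPM (0.44 ± 0.19), and Rpl36al had 98.0 and 70.2 CPM against 87.4 and 117 CPM (0.34 ± 0.23). Fau, which encodes a ubiquitin-like fusion of a small-subunit protein, had 14.9 and 11.5 CPM against 14.6 and 18.5 CPM (0.39 ± 0.23). Rps27rt, a retrotransposed copy of Rps27, had 19.7 and 17.1 CPM in Scr against 20.4 and 27.4 CPM in miR-99 KD (0.43 ± 0.23). edgeR called 0 of the 6 (0% of all genes) and DESeq2 0 (1.67%). At an unadjusted p under 0.05, edgeR had 0 (2.66% of all genes higher, 5.23% lower).

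The 19 core genes linked to Diamond-Blackfan anemia are a subset of the core list. All 19 had a log2 fold change above 0, and the median was 0.42, from 0.061 (Rpl5) to 0.67 (Rps26). edgeR called 0 of them, with 2 (Rps26 and Rpl15) higher at an unadjusted p under 0.05 (2.66% of all genes), and DESeq2 called 0. Both miR-99 KD libraries were above both Scr libraries in 16 of the 19. This held for 68 of the 76 core genes and 18.9% of all genes.

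Other mRNAs of the TOP class, mostly translation factors, were mostly above 0. Of 15 genes, 12 were above 0 and 3 below, and the median log2 fold change was 0.29, with 0.54 without miR-99 KD 1 and 0.18 without Scr 1 or without miR-99 KD 2. Eef1a1, the elongation factor that brings aminoacyl-tRNA to the ribosome, had 1985 and 2023 CPM in Scr against 2453 and 2897 CPM in miR-99 KD. Its log2 fold change was 0.47 ± 0.16, with an unadjusted edgeR p of 0.0398 and an adjusted p of 0.621. Eef1b2, an exchange factor for Eef1a1, had 150 and 129 CPM in Scr against 162 and 208 CPM in miR-99 KD (0.47 ± 0.18). In both genes the groups did not overlap. edgeR and DESeq2 called 0 genes of the list, and edgeR had 1 higher and none lower at an unadjusted p under 0.05.

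Genes that assemble the ribosome had values on both sides of 0, more of them below. Of 32 assembly genes, which serve ribosomal RNA synthesis, modification and processing, 12 were above 0 and 20 below, and the median log2 fold change was −0.12. The list held 0.609% and 0.586% of counts in Scr against 0.564% and 0.546% in miR-99 KD. Pes1, part of a complex that processes large-subunit RNA, had 218 and 184 CPM in Scr against 148 and 142 CPM in miR-99 KD (−0.41 ± 0.15, edgeR adjusted p 0.621). Npm1, the abundant nucleolar chaperone, had 258 and 251 CPM in Scr against 290 and 359 CPM in miR-99 KD (0.40 ± 0.17, edgeR adjusted p 0.655). edgeR and DESeq2 called 0 of the 32, and edgeR had 1 lower and none higher at an unadjusted p under 0.05. The median of the list moved to 0.0048 without miR-99 KD 2.

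Chaperones that escort single ribosomal proteins lay in between. Of 7 such genes 6 were tested, 5 with a log2 fold change above 0 and a median of 0.18. edgeR called 0 (0% of all genes) and DESeq2 0 (1.67%). At an unadjusted p under 0.05, edgeR had 0 (2.66% of all genes higher, 5.23% lower). The exception to testing was Pdcd2, which had 0 counts in all 4 libraries. Ltv1, an export factor of the small subunit, had 131 and 118 CPM in Scr against 126 and 165 CPM in miR-99 KD (0.28 ± 0.19), and Pdcd2l had 29.6 and 25.7 CPM against 28.9 and 33.5 CPM (0.23 ± 0.19). The median of the list was 0.053 without miR-99 KD 2 and 0.30 without miR-99 KD 1.

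**Figure D4:**
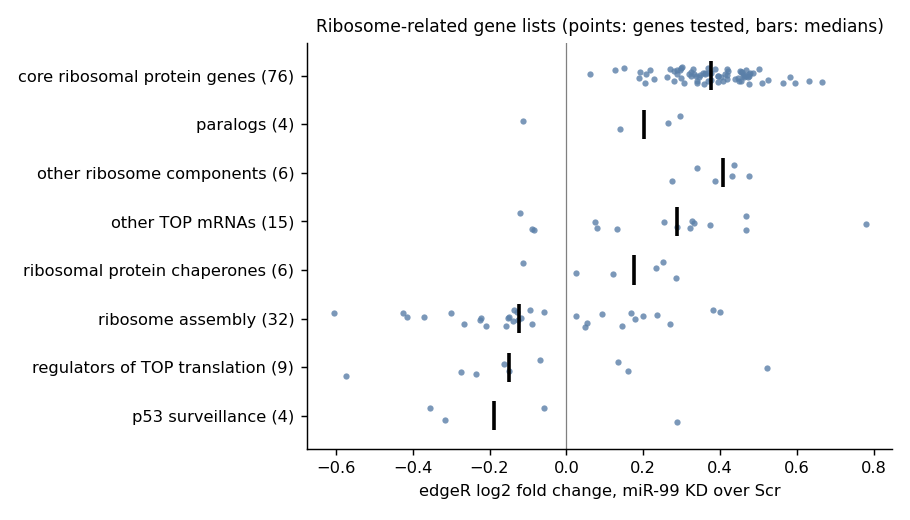
edgeR log2 fold changes of miR-99 KD over Scr for the core genes, the paralogs and 6 other lists related to the ribosome; points are the genes tested, bars are list medians and numbers in brackets count the genes. Medians run from 0.41 for ribosome components outside the symbol pattern and 0.38 for the core genes to −0.12 for assembly genes and −0.19 for p53 surveillance genes.

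Regulators of TOP mRNA translation and of p53 went both ways. Of 9 genes around mTOR and LARP1, 3 were above 0 and 6 below, and the median log2 fold change was −0.15. Rps6kb2, a kinase of the Rps6 protein, had 48.6 and 40.8 CPM in Scr against 37.3 and 33.6 CPM in miR-99 KD (−0.27 ± 0.19). Rptor, the defining subunit of mTOR complex 1, had 51.9 and 78.4 CPM in Scr against 56.6 and 28.3 CPM in miR-99 KD (−0.57 ± 0.46), with overlapping groups. The median of these 9 genes was 0.023 without miR-99 KD 2. Of 4 p53 genes, 1 was positive and 3 were negative, with a median of −0.19 that was −0.037 without miR-99 KD 2. Trp53 had 196 and 167 CPM in Scr against 218 and 209 CPM in miR-99 KD (0.29 ± 0.14). Its target Cdkn1a had 32.1 and 29.2 CPM against 23.3 and 24.1 CPM (−0.32 ± 0.18). edgeR called 0 genes of both lists (0% of all genes) and DESeq2 0 (1.67%). At an unadjusted p under 0.05, edgeR had 0 (2.66% of all genes higher, 5.23% lower).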

How the data were processed

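Read counts per Ensembl gene identifier, as deposited by the authors, were used for 4 libraries made by SMARTer amplification. The submitters' processing notes name STAR, Picard, HTSeq and DESeq2 and the build mm9. Their roles and versions, the strand setting and the annotation were not given in the sources used here, so reads of a gene and its antisense neighbour cannot be told apart. Entries that name no gene made up 43.7% to 49.7% of each library and stayed out of library sizes. Alignments that were not unique were among them, so a gene with near-identical copies loses reads.

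Symbols matched 44585 of 45232 identifiers, and coordinates are those of GENCODE M21 (GRCm38) or RefSeq (GRCm38.p6), with none converted from mm9. CPM values are counts scaled to gene totals. Groups were compared in R 4.3.3 with the two-sided quasi-likelihood test of edgeR 4.0.16, using TMM factors (0.969 to 1.07), its expression filter at a minimum count of 10, and p-values adjusted by Benjamini-Hochberg over 15591 genes. There were 2 residual degrees of freedom and a common biological coefficient of variation of 0.320. Standard errors were worked back from this test, as the absolute log2 fold change over the square root of its F statistic. DESeq2 1.42.0, limma-voom (limma 3.58.1), other scalings and filters, a replicate block and leaving out each library were alternatives. Scripts were tested on simulated data. Single values were compared by exact permutation, and intervals or floors cover counting error only.

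The members and the gene lists were chosen with earlier results of these data known. Named genes are the 8 core genes highest per kb of exon, the 8 with the smallest p in each direction (none was negative), paralogs with at least 10 counts, 8 genes named for their role, the 6 components outside the symbol pattern, and 2 genes with the smallest p per list, of which those of the cell type lists are given only in part. The 8 genes listed for overlapping groups, Rpl24, Slc4a1, Cd79b, Cd3e, Cd3g, Cdh5, the genes shown for their start sequence and the example pseudogenes were chosen after their values were seen. Some genes that this rule names are not reported here.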

Additional observations from a re-analysis of the deposited data

How the results depend on the processing

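No core gene or paralog was called by adjusted p under any setting run. All 76 core genes had a positive log2 fold change in each fit except the one without miR-99 KD 2, where 74 had. Their median lay between 0.32 and 0.43 over the scalings, filters, tools and blocks, and between 0.27 (without miR-99 KD 2) and 0.59 (without miR-99 KD 1) when 1 library was left out. The number of core genes at an unadjusted p under 0.05 was 5 in the main edgeR fit (2.66% of all genes). It was 0 with upper-quartile factors or with library totals alone, 14 without a filter and 3 with a minimum count of 50. The share of all genes under those other settings is not given here, so their counts have no background beside them. A fit without a library leaves 1 in its group, assumed to vary like the other group. Both miR-99 KD libraries were above both Scr libraries in 30 core genes with upper-quartile factors. The setting with library totals alone was added after seeing the data.

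The replicate numbers are not stated to pair mice, so the main fit had no block. Deviations of libraries with the same number correlated at −0.43. With crossed numbers the value was 0.43, equal in size by construction, so it cannot show whether libraries were paired. With the replicate block the core median was 0.37, with 0 genes called and 0 at an unadjusted p under 0.05. With crossed numbers, a fit added after seeing the data, 0 were called and 6 were at an unadjusted p under 0.05. The share of all genes in the block fits is not given here, so these counts have no background beside them.

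Over the 4 fits that leave out 1 library each, the log2 fold change of Rpl3l ran from −0.025 (without Scr 2) to 0.46, that of Rpl7l1 from −0.11 to 0.011 (without Scr 1), that of Rpl5 from −0.033 (without miR-99 KD 2) to 0.24, and that of Ms4a1, a B cell gene, from −4.40 to 1.01 (without Scr 1). Leaving out 1 library moved the log2 ratio of Rpl22l1 to Rpl22 between −0.16 and 0.042 and that of Rpl3l to Rpl3 between −0.38 and 0.18. It moved list medians between 0.26 and 0.59 (components outside the pattern), −0.11 and 0.0048 (assembly), 0.053 and 0.30 (chaperones), 0.18 and 0.54 (other TOP mRNAs), −0.11 and 0.023 (TOP regulators), −0.14 and −0.037 (p53), 0.15 and 0.32 (sort gate), −1.82 and −0.29 (erythroid), −2.05 and 0.39 (B cell), −0.47 and 0.52 (T and NK cell), and −1.28 and 0.99 (stroma and endothelium). The T and NK cell median was −0.45 with DESeq2 size factors. The cause was not tested. With 2 libraries a group, the exact permutation test cannot go below p = 0.333, whatever the size of a difference.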
